A study of Mus musculus with 8 samples.

Results

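The genes described here are 36 direct targets of compound classes that are used to make mouse cells pluripotent with small molecules alone. They are the 11 zinc-dependent histone deacetylases (Hdac1 to Hdac11), the kinases Gsk3a and Gsk3b, the activin, Nodal and TGF-β receptors Tgfbr1 (ALK5), Acvr1b (ALK4) and Acvr1c (ALK7), the histone demethylases Kdm1a (LSD1) and Kdm1b (LSD2), the monoamine oxidases Maoa and Maob, the 9 membrane adenylyl cyclases Adcy1 to Adcy9, the S-adenosylhomocysteine hydrolase Ahcy, the histone methyltransferases Dot1l, Ezh1 and Ezh2, and the retinoic acid receptors Rara, Rarb and Rarg. They were chosen by name and by the known target of the compound class, not by level, and all 36 were found among the 39009 entries of the deposited gene tables. Hdac4 has a second, shorter entry, so the 36 genes take up 37 entries, and counts of genes below use the longer one. A level of at least 1 FPKM (sequenced fragments corrected for transcript length and for library depth) in at least 1 library was reached by 34 of the 36, which were tested together with all other genes that passed, 17011 in all. Acvr1c, at no more than 0.188 FPKM, and Adcy4, at no more than 0.235 FPKM, did not pass. Maob and Adcy7 passed only through intestinal source cells and Adcy8 only through neural source cells, so that a difference from those cells was built into their passing. Hdac9, Adcy5 and Rarb passed only through the 2 source libraries and were under 1 FPKM in every line and in ESC, so that their falls are tied to their passing as well.

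The study sequenced RNA from chemically induced pluripotent stem cells (CiPSC), which are cells brought to pluripotency by compounds without transferred genes, and from the cells they came from. NSC-CiPSC are 3 lines (1, 2 and 3) derived from neural stem cells, set against 1 library of cultured neural stem cells (NSC) at passage 2 from E13.5 embryos. IEC-CiPSC are 2 lines (10 and 13) derived from small intestinal epithelial cells, set against 1 library of such primary cells (IEC), also from E13.5 embryos. The R1 line of mouse embryonic stem cells (ESC), 1 library, served as the pluripotent control. All libraries but ESC carry a strain label of the form C57BL/6J-Tg(GOFGFP)11Imeg/RbrcxICR, a reporter transgene crossed with the outbred ICR stock; the number before Imeg differs in each of them, and the promoter of the transgene is not named in the labels. ESC are 129X1 x 129S1, so that strain and cell origin cannot be told apart in a comparison with ESC. Each line is 1 derivation sequenced once, each source cell type is 1 library, and p-values below therefore measure the spread between CiPSC lines alone. The compounds and doses that these lines received are not given in the sources used here, so the genes stand for compound classes and not for a known treatment of these samples.

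HDACs remove acetyl groups from histones and other proteins, and inhibitors such as valproic acid loosen repressive chromatin. GSK3 marks β-catenin for destruction, and its inhibitors keep mouse embryonic stem cells undifferentiated, while inhibitors of ALK4, ALK5 and ALK7 block a signal that holds cells in a mesenchymal state. Tranylcypromine blocks both the flavin-dependent demethylase LSD1 and its relatives the monoamine oxidases, forskolin activates adenylyl cyclases to raise cAMP, 3-deazaneplanocin A blocks S-adenosylhomocysteine hydrolase and thereby methyl transfer, and other compounds block DOT1L or EZH2 or activate retinoic acid receptors.

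Sequencing depth, estimated from the width of the intervals that the authors' software gave for each level, was 8816000 to 10122000 fragments per library, and 12547 to 14051 genes reached 1 FPKM. Mitochondrial transcripts took between 1.94% of the summed FPKM, in NSC-CiPSC line 2, and 11.6%, in NSC. All 8 pluripotency markers of a fixed list were above 10 FPKM in every CiPSC line and in ESC, and all 8 neural stem cell markers were above 10 FPKM in NSC. In the IEC library 8 markers of intestinal epithelium summed to only 22.6 FPKM, of which Lgals4 gave 16.8 and Vil1 3.14, with Fabp2 at 0.745, Cdx1 at 0.182, Cdx2 at 0.0912 and Muc2 at 0. Lgals4, Vil1 and Fabp2 were higher there than in any other library, and 6 markers of epithelia in general summed to 164 FPKM, 5 of them above 10 FPKM, among them Krt8 at 58.5 and Krt18 at 53.7. Markers of other tissues were far higher in IEC: 8 markers of mesenchyme summed to 6818 FPKM, 6 of liver to 5893, 6 of smooth muscle to 3982, 7 of leukocytes to 3701 and 6 of pancreas to 2433. In the IEC-CiPSC lines the same lists summed to 10.4 and 14.0 FPKM for intestinal epithelium, 258 and 228 for epithelia in general, 38.4 and 41.9 for mesenchyme, at most 0.356 for liver, 63.7 and 74.6 for smooth muscle, 13.1 and 10.1 for leukocytes and 0.105 for pancreas in both. These lists move with every comparison against IEC below; their part in those results was not tested, and in bulk RNA fewer cells of a type and less RNA per cell cannot be told apart.

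In NSC-CiPSC, 6 target genes rose and 10 fell among the 34 tested when set against NSC, where a call means an adjusted p under 0.05 and at least a 2-fold change on the log2(FPKM + 1) scale. Among all genes tested 18.3% rose and 20.7% fell, so that the 17.6% of target genes that rose lay close to the background. The 29.4% that fell are set beside it without being read against it, since Hdac9, Adcy8 and Rarb among them passed only through source cells, as did Hdac9, Maob, Adcy5, Adcy7 and Rarb among the falls in IEC-CiPSC below. In either direction 16 of the 34 were called (47.1%), beside 39% of all genes. Those that rose were Hdac1, Hdac6, Kdm1a, Ahcy, Rara and Rarg, and those that fell were Hdac7, Hdac8, Hdac9, Gsk3b, Maoa, Adcy1, Adcy6, Adcy8, Adcy9 and Rarb. In IEC-CiPSC, 6 target genes rose (19.1% of all genes did) and 13 fell (26.2% of all genes did) when set against IEC. In either direction these 19 were 55.9% of the 34, beside 45.3% of all genes. There Hdac1, Hdac6, Kdm1a, Ahcy, Dot1l and Ezh2 rose, and Hdac5, Hdac7, Hdac9, Hdac10, Tgfbr1, Maob, Adcy1, Adcy2, Adcy3, Adcy5, Adcy6, Adcy7 and Rarb fell. The median change over the 34 target genes was -0.12 in the neural and -0.28 in the intestinal route, beside medians over all genes of 0.03 and -0.03.

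**Figure D1:**
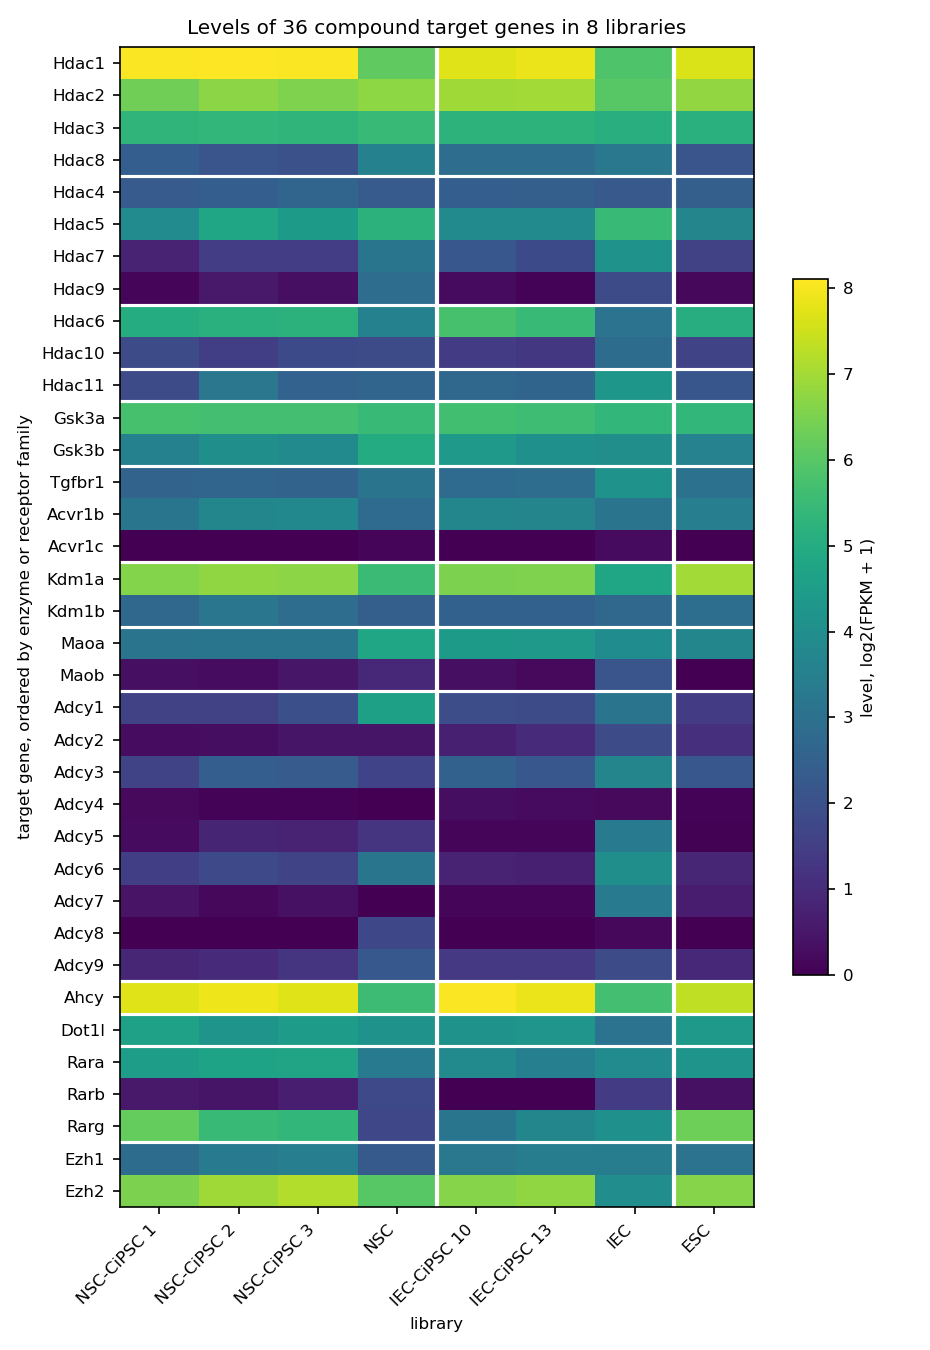
Level of each of the 36 target genes, as log2(FPKM + 1) by colour, in the 8 libraries (columns), with genes ordered by family and white lines between families and between routes. Hdac1 and Ahcy are the brightest genes in all 5 CiPSC lines and in ESC, and the adenylyl cyclases are dark in the lines and lighter in NSC or IEC.

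Hdac1, Hdac6, Kdm1a and Ahcy rose in both routes, 4 of 34 target genes beside 10.5% of all genes, and Hdac7, Hdac9, Adcy1, Adcy6 and Rarb fell in both, 5 of 34 beside 10.7% of all genes, with Hdac9 and Rarb again among those that passed only through source cells. Their changes stand in the plot of changes by route together with those of the other tested genes.

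**Figure D2:**
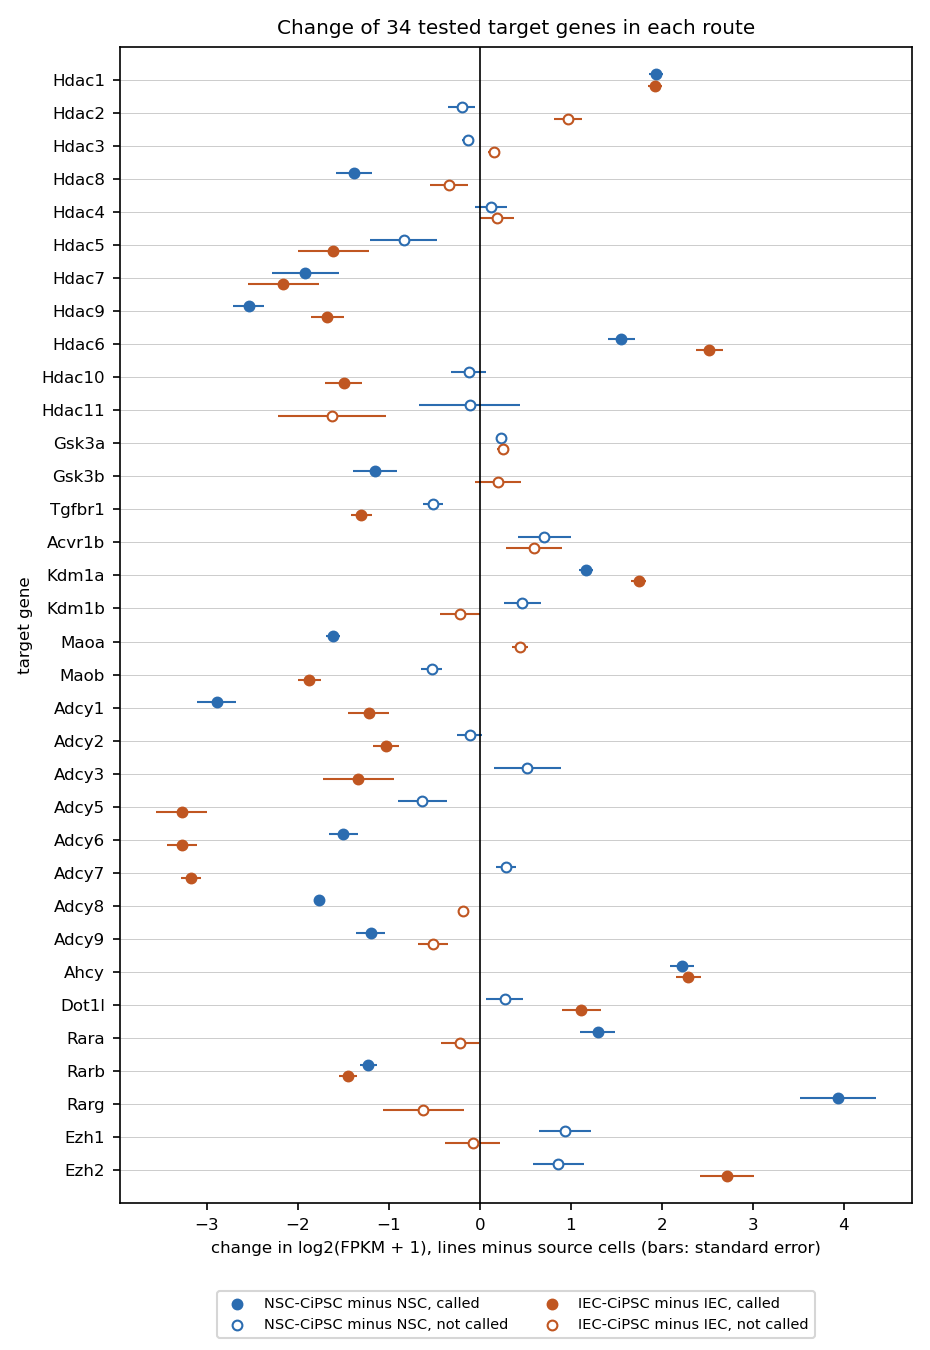
Change in log2(FPKM + 1) of the 34 tested target genes, lines minus source cells, with NSC-CiPSC minus NSC in blue and IEC-CiPSC minus IEC in orange; bars are the standard errors of the limma fit, filled points were called and open points were not. Hdac1 and Ahcy lie at nearly the same positive change in both routes, whereas Rarg lies at 3.94 in the neural and at -0.62, not called, in the intestinal one.

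Ahcy splits S-adenosylhomocysteine, the product of every methyl transfer from S-adenosylmethionine, into adenosine and homocysteine. Its level was 207, 241 and 208 FPKM in NSC-CiPSC lines 1, 2 and 3, against 45.8 FPKM in NSC, and 267 and 235 FPKM in IEC-CiPSC lines 10 and 13, against 50.3 FPKM in IEC. The 5 lines lay far above both source libraries, with no overlap, and also above the 159.8 FPKM of ESC. The change was 2.22 ± 0.13 in log2(FPKM + 1) (SE, limma adjusted p = 0.000665) in the neural and 2.29 ± 0.14 (limma adjusted p = 0.000485) in the intestinal route. Reads of Ahcy may be shared with the gene Gm4737, whose transcript matched it at 99.7% identity over 2083 bases. Gm4737 had 71.8 to 79.9 FPKM in NSC-CiPSC, against 11.4 FPKM in NSC. In IEC-CiPSC, Gm4737 had 79.6 and 82.4 FPKM, against 17.6 FPKM in IEC. It was thus high in the same libraries as Ahcy.

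Kdm1a removes methyl groups from lysine 4 of histone H3 together with its corepressor CoREST. It had 97.1, 107 and 102 FPKM in NSC-CiPSC, against 44.8 FPKM in NSC. In IEC-CiPSC, Kdm1a had 90.6 and 92.8 FPKM, against 26.6 FPKM in IEC. All 5 lines were above both source libraries and below the 124 FPKM of ESC. The change was 1.17 ± 0.07 (SE, limma adjusted p = 0.000795) in the neural and 1.75 ± 0.08 (limma adjusted p = 0.000206) in the intestinal route. In the neural route it dropped to 0.89, under 2-fold, when each library was rescaled to its sum without mitochondrial transcripts. The related Kdm1b, with 5.71, 7.99 and 6.45 FPKM in NSC-CiPSC, 4.54 FPKM in NSC, 4.70 and 4.77 FPKM in IEC-CiPSC, 5.67 FPKM in IEC and 6.58 FPKM in ESC, was called in neither route. Transcripts of Kdm1b and of the gene Dek match at 100% identity over 505 bases, so that reads there could be assigned to either. Dek had 158 to 195 FPKM in NSC-CiPSC, against 102 FPKM in NSC, and 164 and 181 FPKM in IEC-CiPSC, against 78.8 FPKM in IEC. Between 93.1% and 95.1% of the summed FPKM of both demethylases came from Kdm1a in the lines, against 90.8% in NSC and 82.4% in IEC.

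Hdac6, an X-linked gene, encodes a mostly cytoplasmic deacetylase that acts on tubulin. Its level was 31.5, 34.4 and 35.99 FPKM in NSC-CiPSC, against 10.9 FPKM in NSC. In IEC-CiPSC, Hdac6 had 53.1 and 43.9 FPKM, against 7.56 FPKM in IEC. The lines did not overlap with their source cells, and both IEC-CiPSC lines lay above all 3 NSC-CiPSC lines and above the 32.4 FPKM of ESC. It rose by 1.56 ± 0.14 (SE, limma adjusted p = 0.00199) in the neural and by 2.53 ± 0.15 (limma adjusted p = 0.000478) in the intestinal route. Over the 666 X-linked genes tested the median change was 0.06 in the neural and 0.55 in the intestinal route, against 0.02 and -0.05 over 16297 autosomal genes. The part of this chromosome-wide shift in the values of the X-linked Hdac6, Hdac8, Maoa and Maob was not tested.

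Promoters of the 3 genes that rose in both routes and have an entry in the promoter table are shown because these genes were high in all 5 lines at once. Each is the 250 bases before the RefSeq transcription start in the build GRCm38.p6, written 5′ to 3′ on the strand of the gene, with the letters of a CCAAT box, of a GC box (GGGCGG) or of the reverse complement of either in capitals; the windows are chrX:7947890-7948139, minus strand, for Hdac6, chr4:136602724-136602973, minus strand, for Kdm1a and chr2:155074498-155074747, minus strand, for Ahcy.
Hdac6: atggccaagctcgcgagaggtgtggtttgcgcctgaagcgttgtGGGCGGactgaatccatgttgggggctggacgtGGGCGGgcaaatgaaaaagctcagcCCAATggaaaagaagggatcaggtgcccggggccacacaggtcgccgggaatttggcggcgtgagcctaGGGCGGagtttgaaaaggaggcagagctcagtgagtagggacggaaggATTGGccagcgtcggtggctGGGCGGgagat
Kdm1a: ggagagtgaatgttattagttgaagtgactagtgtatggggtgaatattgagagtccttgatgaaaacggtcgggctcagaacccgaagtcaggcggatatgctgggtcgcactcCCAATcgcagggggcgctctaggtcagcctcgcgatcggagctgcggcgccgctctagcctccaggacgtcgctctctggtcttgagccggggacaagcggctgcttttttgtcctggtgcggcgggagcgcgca
Ahcy: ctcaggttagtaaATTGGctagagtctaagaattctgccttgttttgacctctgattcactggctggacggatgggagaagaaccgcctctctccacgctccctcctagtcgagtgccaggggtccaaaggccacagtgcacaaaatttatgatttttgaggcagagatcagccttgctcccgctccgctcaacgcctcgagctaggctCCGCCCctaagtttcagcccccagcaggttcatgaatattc
Of the 36 target genes, 30 were matched by symbol to 43 promoters. GGGCGG on either strand was in 24 of these 43, against 32.7% of 32851 promoters of the same length, and CCAAT on either strand was in 16 of them, against 33.8%. TATAAA was in 3 (12.4% of all promoters) and CACGTG in 3 (6.02%). Such a match is a description of letters in a window, not of a bound site.

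Among the class I HDACs, the nuclear enzymes of the NuRD, Sin3 and CoREST corepressors, Hdac1 changed place with Hdac2 as the most abundant. Hdac1 had 267, 275 and 268 FPKM in NSC-CiPSC, against 69.7 FPKM in NSC. In IEC-CiPSC, Hdac1 had 209.5 and 231 FPKM, against 57.2 FPKM in IEC, beside 199 FPKM in ESC. All 5 lines were above ESC, and both source libraries were far below it. The change was 1.94 ± 0.07 (SE, limma adjusted p = 0.000238) in the neural and 1.92 ± 0.08 (limma adjusted p = 0.000156) in the intestinal route. Hdac2 had 80.7, 103 and 91.7 FPKM in NSC-CiPSC, against 105 FPKM in NSC. In IEC-CiPSC, Hdac2 had 123 and 125 FPKM, against 63.0 FPKM in IEC, with 110.0 FPKM in ESC. All 3 NSC-CiPSC lines lay below NSC, with a change of -0.20 (limma adjusted p = 0.325) that was not called, while in IEC-CiPSC the change of 0.97 ± 0.16 (limma adjusted p = 0.00818) missed the 2-fold bound by little. Hdac1 made up 65.2% to 68.4% of the class I sum in NSC-CiPSC, against 30.5% in NSC, and 55.7% and 57.8% in IEC-CiPSC, against 35.4% in IEC, with 57.3% in ESC. A near copy, Gm10093, matched Hdac1 at 99.4% identity over 1444 bases and had 17.3 to 18.5 FPKM in NSC-CiPSC, against 2.21 FPKM in NSC. In IEC-CiPSC, Gm10093 had 14.6 and 15.4 FPKM, against 3.84 FPKM in IEC, so part of the reads of either may belong to the other.

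The other class I enzymes were steadier or lower. Hdac3, the enzyme of the NCoR corepressor, ranged from 32.9 to 43.1 FPKM over all 8 libraries and was called in no comparison. Hdac8, X-linked and lowly expressed, had 4.35, 3.37 and 3.06 FPKM in NSC-CiPSC, against 10.9 FPKM in NSC. In IEC-CiPSC, Hdac8 had 6.39 and 6.47 FPKM, against 8.41 FPKM in IEC, with 3.37 FPKM in ESC. Every line was below its source library, and Hdac8 fell by 1.38 ± 0.20 on the log2 scale (SE, limma adjusted p = 0.0065) in the neural route, while the intestinal change of -0.34 was not called (limma adjusted p = 0.231).

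The class IIa HDACs are signal-dependent repressors that leave the nucleus when phosphorylated and act with MEF2 factors in muscle, neurons and lymphocytes. None of the 4 rose in either route. In the neural route 2 fell (20.7% of all genes did) and in the intestinal route 3 fell (26.2% of all genes did), Hdac7 and Hdac9 in both. Hdac9 passed the filter only through source cells, so that its falls are tied to its passing. Hdac9 had 0.115, 0.457 and 0.270 FPKM in NSC-CiPSC, against 6.41 FPKM in NSC. In IEC-CiPSC, Hdac9 had 0.178 and 0.0663 FPKM, against 2.58 FPKM in IEC, with 0.138 FPKM in ESC. It was nearly silent in every pluripotent library and fell by 2.54 ± 0.17 (SE, limma adjusted p = 0.00091) in the neural and by 1.67 ± 0.18 (limma adjusted p = 0.00249) in the intestinal route. Hdac7 had 0.722, 1.75 and 1.78 FPKM in NSC-CiPSC, against 7.91 FPKM in NSC. In IEC-CiPSC, Hdac7 had 3.62 and 2.55 FPKM, against 17.1 FPKM in IEC, with 1.95 FPKM in ESC. The lines and source cells did not overlap, and Hdac7 fell by 1.92 ± 0.37 (SE, limma adjusted p = 0.0149) and by 2.16 ± 0.39 (limma adjusted p = 0.0113); without IEC-CiPSC line 13 the intestinal call was lost, at a limma adjusted p of 0.0555. Hdac5, the most abundant of the class, had 14.1, 27.1 and 20.4 FPKM in NSC-CiPSC, against 36.2 FPKM in NSC. In IEC-CiPSC, Hdac5 had 13.34 and 13.46 FPKM, against 42.9 FPKM in IEC, with 12.0 FPKM in ESC. All 5 lines lay below both source libraries. The spread among NSC-CiPSC lines left the neural change of -0.83 ± 0.37 uncalled (SE, limma adjusted p = 0.125), and the intestinal one of -1.61 ± 0.39 (limma adjusted p = 0.0261) was lost without NSC-CiPSC line 3 or without either IEC-CiPSC line, at a limma adjusted p of up to 0.0969. Hdac4 had 3.76 to 5.26 FPKM in all libraries in its longer entry and 1.67 to 4.36 FPKM in the shorter one, and neither entry was called.

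Hdac10, a polyamine deacetylase of class IIb, had 2.63, 1.85 and 2.54 FPKM in NSC-CiPSC, against 2.61 FPKM in NSC. In IEC-CiPSC, Hdac10 had 1.68 and 1.46 FPKM, against 6.24 FPKM in IEC, with 2.15 FPKM in ESC. IEC was the one library that stood apart, and the gene fell by 1.49 ± 0.20 (SE, limma adjusted p = 0.00479) in the intestinal route. Hdac11, the class IV enzyme and a remover of long fatty acyl groups, had 2.64, 8.28 and 4.84 FPKM in NSC-CiPSC, against 5.29 FPKM in NSC. In IEC-CiPSC, Hdac11 had 5.51 and 5.14 FPKM, against 18.5 FPKM in IEC, with 3.46 FPKM in ESC. The NSC-CiPSC lines lay on both sides of NSC, and the intestinal change of -1.62 ± 0.59 was not called (SE, limma adjusted p = 0.0762), though it was without NSC-CiPSC line 1 (limma adjusted p = 0.0292) or line 2 (limma adjusted p = 0.0365).

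Of 23 tested subunits of HDAC corepressors, the partners of these enzymes, 5 rose and 1 fell in the neural route, where 18.3% and 20.7% of all genes did. In the intestinal route 5 rose and 2 fell, where 19.1% and 26.2% of all genes did, so that the share that rose lay near the background in both. Median changes were 0.35 in the neural and 0.45 in the intestinal route, beside 0.03 and -0.03 over all genes. Mta3, a NuRD subunit, had 62.0 to 72.2 FPKM in NSC-CiPSC, against 12.6 FPKM in NSC. In IEC-CiPSC, Mta3 had 95.1 and 95.4 FPKM, against 17.3 FPKM in IEC. Sin3a, the scaffold of the Sin3 complex, rose by 1.78 ± 0.27 (SE, limma adjusted p = 0.00736) in the neural route, with 41.2 to 64.4 FPKM in NSC-CiPSC and 14.8 FPKM in NSC. Sin3a was also higher in IEC-CiPSC, at 51.8 and 51.4 FPKM, against 16.1 FPKM in IEC. In the opposite direction, Chd3, another NuRD subunit, had 9.12 and 11.2 FPKM in IEC-CiPSC, against 82.0 FPKM in IEC. Of the 7 sirtuins, the NAD-dependent deacetylases that zinc-directed inhibitors do not reach, 2 rose and 1 fell in the neural route, beside 18.3% and 20.7% of all genes, and 1 rose and 2 fell in the intestinal route, beside 19.1% and 26.2%. Sirt2 was low in all lines, at 15.5 to 16.6 FPKM in NSC-CiPSC, against 60.4 FPKM in NSC. In IEC-CiPSC, Sirt2 had 12.6 and 13.2 FPKM, against 64.8 FPKM in IEC. Sirt1 was high in all lines, at 16.0 to 33.2 FPKM in NSC-CiPSC, against 4.65 FPKM in NSC. In IEC-CiPSC, Sirt1 had 16.4 and 19.3 FPKM, against 4.23 FPKM in IEC; both Sirt1 calls were lost without NSC-CiPSC line 3 or either IEC-CiPSC line.

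**Figure D3:**
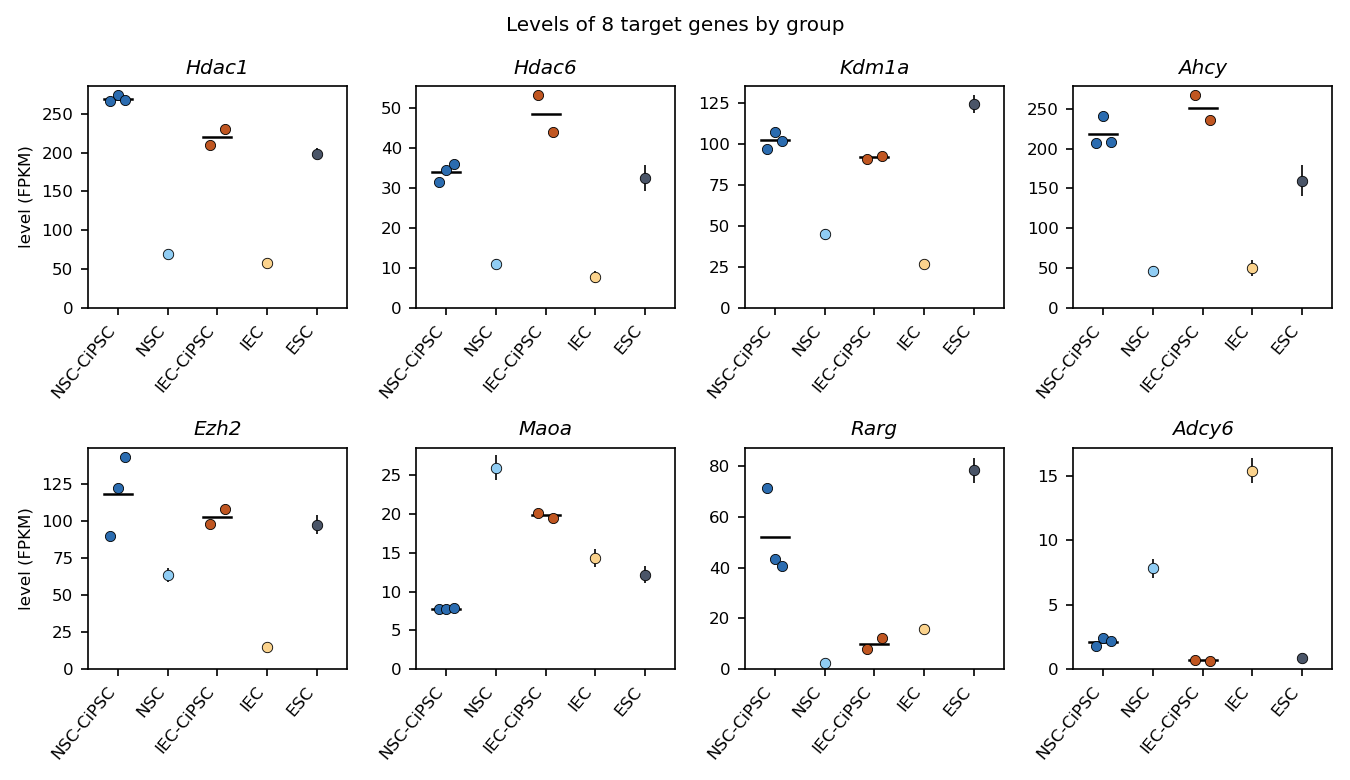
Level in FPKM, on a linear axis from 0, of 8 target genes in each library, grouped from left to right as NSC-CiPSC, NSC, IEC-CiPSC, IEC and ESC; points are libraries, short lines are the means of groups with more than 1 library, and bars on lone libraries are the 95% intervals within the library given by the authors' software. Hdac1, Hdac6, Kdm1a and Ahcy are high in all lines, Maoa is lowest in NSC-CiPSC, and Rarg is high in NSC-CiPSC and ESC but not in IEC-CiPSC.

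Among the histone methyltransferases, Ezh2, which places the repressive mark on lysine 27 of histone H3 as part of Polycomb complex PRC2, had 90.2, 122 and 143 FPKM in NSC-CiPSC, against 63.5 FPKM in NSC. In IEC-CiPSC, Ezh2 had 97.9 and 108 FPKM, against 14.8 FPKM in IEC, with 97.6 FPKM in ESC. IEC stood far below every other library. Ezh2 rose by 2.72 ± 0.30 (SE, limma adjusted p = 0.00261) in the intestinal route, while the neural change of 0.86 ± 0.28 was not called (limma adjusted p = 0.0611), although all 3 lines were above NSC; without NSC-CiPSC line 1 it was 1.05 and called (limma adjusted p = 0.0111). Its paralog Ezh1, typical of cells that no longer divide, had 6.31, 8.97 and 10.2 FPKM in NSC-CiPSC, against 3.88 FPKM in NSC. In IEC-CiPSC, Ezh1 had 8.47 and 9.75 FPKM, against 9.63 FPKM in IEC, with 7.48 FPKM in ESC, and was called in neither route, its neural change of 0.94 ± 0.28 (SE, limma adjusted p = 0.0511) standing at the threshold and reaching 1.11 without NSC-CiPSC line 1 (limma adjusted p = 0.011). Ezh2 therefore made up 93.2% to 93.5% of the summed FPKM of both in NSC-CiPSC, against 94.2% in NSC, and 92.0% and 91.7% in IEC-CiPSC, against 60.6% in IEC. Of 7 PRC2 partners, 4 rose and none fell in the neural route, beside 18.3% and 20.7% of all genes, and 4 rose and 1 fell in the intestinal route, beside 19.1% and 26.2%. Their median changes were 1.41 and 2.61, beside 0.03 and -0.03 over all genes. Mtf2, an accessory subunit that brings PRC2 to CpG islands, had 72.1 to 88.1 FPKM in NSC-CiPSC, against 7.18 FPKM in NSC. In IEC-CiPSC, Mtf2 had 127 and 132 FPKM, against 7.30 FPKM in IEC. Jarid2, another accessory subunit, had 53.3 to 102 FPKM in NSC-CiPSC, against 11.7 FPKM in NSC. In IEC-CiPSC, Jarid2 had 71.0 and 87.0 FPKM, against 6.78 FPKM in IEC.

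Dot1l, which methylates lysine 79 of histone H3 on transcribed genes, had 24.1, 17.4 and 21.5 FPKM in NSC-CiPSC, against 17.0 FPKM in NSC. In IEC-CiPSC, Dot1l had 16.6 and 17.9 FPKM, against 7.41 FPKM in IEC, with 19.3 FPKM in ESC. Only IEC was clearly lower than the rest, and Dot1l rose by 1.12 ± 0.21 (SE, limma adjusted p = 0.0131) in the intestinal route. That call was lost without either IEC-CiPSC line, and also after rescaling to the sum without mitochondrial transcripts, where the change was 0.986. Of 5 tested partners of DOT1L, 1 rose and none fell in the neural route, beside 18.3% and 20.7% of all genes, and 1 rose and 1 fell in the intestinal route, beside 19.1% and 26.2%. Mllt10, its cofactor, had 27.2 to 30.2 FPKM in NSC-CiPSC, against 10.3 FPKM in NSC. In IEC-CiPSC, Mllt10 had 29.5 and 30.4 FPKM, against 10.7 FPKM in IEC. Of 8 tested partners of LSD1 and LSD2, 1 rose and 2 fell in the neural route, beside 18.3% and 20.7% of all genes, and 1 rose and 1 fell in the intestinal route, beside 19.1% and 26.2%. The one that rose in both was Rcor2, a CoREST protein of pluripotent cells, with 55.8 to 59.7 FPKM in NSC-CiPSC, against 8.25 FPKM in NSC. In IEC-CiPSC, Rcor2 had 88.5 and 95.8 FPKM, against 4.31 FPKM in IEC.

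Around Ahcy, 17 genes of the methionine and S-adenosylmethionine cycle were tested, of which 6 rose and 3 fell in the neural route, beside 18.3% and 20.7% of all genes. In the intestinal route 6 rose and 4 fell, beside 19.1% and 26.2% of all genes. Cbs, which draws homocysteine off towards cysteine, fell by 2.00 ± 0.11 (SE, limma adjusted p = 0.000625) in the neural route, with 14.1 to 15.6 FPKM in NSC-CiPSC and 62.2 FPKM in NSC. Ahcyl1, a relative of Ahcy that binds the IP3 receptor, fell there too, to 26.8 to 35.2 FPKM in NSC-CiPSC, against 124 FPKM in NSC. Mat1a, the liver form of S-adenosylmethionine synthetase, had at most 0.0311 FPKM in IEC-CiPSC, against 32.0 FPKM in IEC, the library in which 6 of 6 liver markers were above 10 FPKM.

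Among the retinoic acid receptors, which switch genes on when retinoic acid binds them, Rarg had 71.5, 43.3 and 40.8 FPKM in NSC-CiPSC, against 2.34 FPKM in NSC. In IEC-CiPSC, Rarg had 7.98 and 12.1 FPKM, against 15.7 FPKM in IEC, with 78.2 FPKM in ESC. The NSC-CiPSC lines lay far above NSC, and the IEC-CiPSC lines lay below IEC, below every NSC-CiPSC line and below ESC. Rarg rose by 3.94 ± 0.42 (SE, limma adjusted p = 0.00286) in the neural route, and its intestinal change of -0.62 ± 0.44 was not called (limma adjusted p = 0.289). Rara had 21.7, 25.2 and 25.5 FPKM in NSC-CiPSC, against 9.21 FPKM in NSC. In IEC-CiPSC, Rara had 13.6 and 10.2 FPKM, against 13.9 FPKM in IEC, with 17.4 FPKM in ESC. It rose by 1.30 ± 0.20 (SE, limma adjusted p = 0.0075) in the neural route and was not called in the intestinal route, at -0.22 ± 0.21 (limma adjusted p = 0.411). Rarb, the receptor gene that is itself a classic target of retinoic acid, had 0.479, 0.379 and 0.604 FPKM in NSC-CiPSC, against 2.47 FPKM in NSC, was listed at 0 in both IEC-CiPSC lines, against 1.72 FPKM in IEC, and had 0.275 FPKM in ESC.

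Rarb was thus low in every line and fell by 1.23 ± 0.09 (SE, limma adjusted p = 0.00124) in the neural and by 1.44 ± 0.10 (limma adjusted p = 0.000678) in the intestinal route on the log2(FPKM + 1) scale, where the second value depends on the pseudocount. Rarb passed the filter only through source cells, so that its falls are tied to its passing. Its transcripts overlap those of Top2b, a topoisomerase gene, over 1433 bases, so that reads in the overlap could be assigned to either. Top2b had 9.35 to 11.4 FPKM in NSC-CiPSC, against 60.1 FPKM in NSC. In IEC-CiPSC, Top2b had 16.3 and 17.1 FPKM, against 31.7 FPKM in IEC. The sum of the 3 receptors was 93.6, 68.8 and 66.9 FPKM in NSC-CiPSC, against 14.0 FPKM in NSC, and 21.6 and 22.3 FPKM in IEC-CiPSC, against 31.3 FPKM in IEC, with 95.9 FPKM in ESC. Rarg held 60.9% to 76.4% of it in NSC-CiPSC, against 16.7% in NSC, 36.9% and 54.1% in IEC-CiPSC, against 50.02% in IEC, and 81.6% in ESC.

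The promoters of Rarb and Rarg are shown because the receptors bind DNA themselves, at pairs of half-sites. In the 250 bases before the RefSeq start (GRCm38.p6, minus strand, 5′ to 3′), capitals mark the direct repeat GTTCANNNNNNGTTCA in Rarb (chr14:16575477-16575726) and GC boxes, GGGCGG or its reverse complement, in the second Rarg promoter (chr15:102257523-102257772); the first Rarg promoter (chr15:102246501-102246750) held none of the motifs searched.
Rarb: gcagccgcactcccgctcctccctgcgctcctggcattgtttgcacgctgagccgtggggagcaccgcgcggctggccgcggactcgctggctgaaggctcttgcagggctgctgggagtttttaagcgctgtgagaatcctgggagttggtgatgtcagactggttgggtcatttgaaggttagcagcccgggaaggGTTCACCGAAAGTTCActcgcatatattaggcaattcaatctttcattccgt
Rarg, first promoter: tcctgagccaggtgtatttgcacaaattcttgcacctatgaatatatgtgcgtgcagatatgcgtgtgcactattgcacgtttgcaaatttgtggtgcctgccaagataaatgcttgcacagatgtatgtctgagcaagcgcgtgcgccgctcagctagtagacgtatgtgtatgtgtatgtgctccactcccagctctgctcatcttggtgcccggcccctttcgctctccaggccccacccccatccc
Rarg, second promoter: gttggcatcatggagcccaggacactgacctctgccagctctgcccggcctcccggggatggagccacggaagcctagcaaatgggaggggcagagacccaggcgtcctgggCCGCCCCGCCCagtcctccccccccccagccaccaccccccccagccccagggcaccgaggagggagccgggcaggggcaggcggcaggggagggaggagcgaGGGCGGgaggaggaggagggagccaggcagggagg
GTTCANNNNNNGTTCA, searched on both strands, was in 22 of 32851 promoters (0.067%), and among the 43 promoters of target genes only in that of Rarb, 52 bases before the start. Only this exact form and spacing was searched, so a lack of matches elsewhere does not show that other forms of the site are absent. No methylation or binding was measured here, so the letters say nothing of use in these cells.

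Of 12 tested genes of retinoid synthesis, binding and response, 4 rose and 2 fell in the neural route, beside 18.3% and 20.7% of all genes, and none rose and 6 fell in the intestinal route, beside 19.1% and 26.2%. Stra8, a retinoic acid target of germ cells that enter meiosis, had 29.6, 108 and 82.1 FPKM in NSC-CiPSC, against 0.102 FPKM in NSC, and 6.33 and 4.03 FPKM in IEC-CiPSC, where IEC was listed at 0, with 7.92 FPKM in ESC. Its neural change of 5.89 ± 0.81 (SE, limma adjusted p = 0.00579) came with a wide spread between lines. Crabp1, a cytoplasmic carrier of retinoic acid, had 23.1, 45.7 and 48.5 FPKM in NSC-CiPSC, against 1.201 FPKM in NSC. Crabp1 was also higher in IEC-CiPSC, at 31.2 and 26.3 FPKM, against 9.51 FPKM in IEC, without being called, and had 47.9 FPKM in ESC. Aldh1a1, which makes retinoic acid, had at most 0.0506 FPKM in IEC-CiPSC, against 42.5 FPKM in IEC, and Dhrs3, which turns retinal back to retinol, had 0.942 and 0.656 FPKM in IEC-CiPSC, against 37.8 FPKM in IEC.

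**Figure D4:**
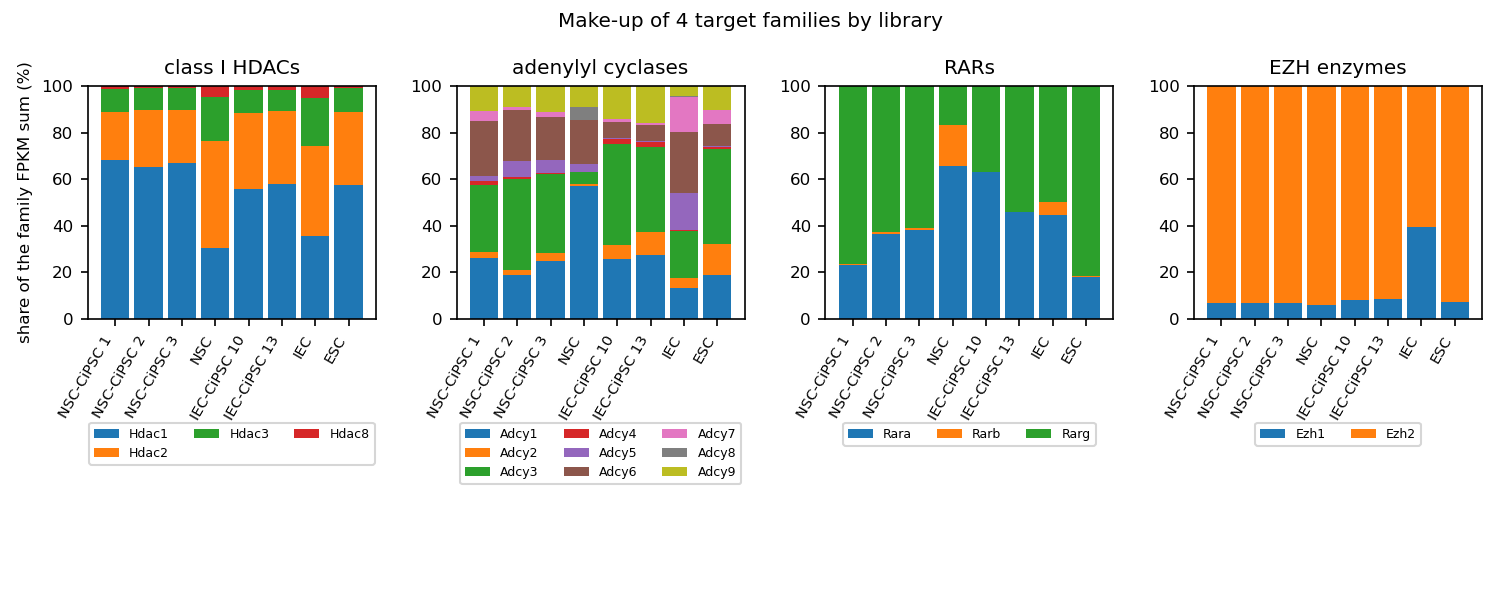
Share of the summed FPKM of a family held by each of its genes, in percent, for class I HDACs, adenylyl cyclases, retinoic acid receptors and EZH enzymes, with 1 stacked bar per library in the order NSC-CiPSC 1 to 3, NSC, IEC-CiPSC 10 and 13, IEC and ESC. Hdac1 holds over 55% of class I in all lines, Adcy1 holds 57.1% of the cyclases in NSC, and Ezh2 holds 60.6% of the EZH sum in IEC and over 90% elsewhere.

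The adenylyl cyclases, the membrane enzymes that make cAMP, were low in all pluripotent libraries. Their summed level was 7.70, 11.0 and 11.9 FPKM in NSC-CiPSC, against 41.3 FPKM in NSC, and 10.8 and 9.79 FPKM in IEC-CiPSC, against 58.8 FPKM in IEC, with 8.73 FPKM in ESC. No line overlapped with a source library. Of the 8 tested, none rose in either route, where 18.3% (neural) and 19.1% (intestinal) of all genes did. In the neural route 4 fell, beside 20.7% of all genes, and in the intestinal route 6 fell, beside 26.2%; Adcy8 in the neural and Adcy5 and Adcy7 in the intestinal route passed only through source cells. Different cyclases carried the sum in the 2 source libraries: Adcy1, a calmodulin-regulated form of neurons, held 57.1% of it in NSC, against 13.1% in IEC, where Adcy6 held 26.2%, Adcy3 20.1%, Adcy5 15.9% and Adcy7 15.1%.

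Adcy1 had 2.00, 2.06 and 2.97 FPKM in NSC-CiPSC, against 23.6 FPKM in NSC. In IEC-CiPSC, Adcy1 had 2.79 and 2.69 FPKM, against 7.70 FPKM in IEC, with 1.65 FPKM in ESC. All lines were below both source libraries, and it fell by 2.89 ± 0.21 (SE, limma adjusted p = 0.00114) in the neural and by 1.22 ± 0.23 (limma adjusted p = 0.012) in the intestinal route. The intestinal call was lost without either IEC-CiPSC line, at a limma adjusted p of up to 0.0602, and under quantile normalization, at a fall of 0.79. Adcy6, which calcium inhibits, had 1.81, 2.43 and 2.17 FPKM in NSC-CiPSC, against 7.83 FPKM in NSC. In IEC-CiPSC, Adcy6 had 0.741 and 0.657 FPKM, against 15.4 FPKM in IEC, with 0.834 FPKM in ESC. It fell in both routes, by 1.499 ± 0.16 (SE, limma adjusted p = 0.00268) in the neural and by 3.27 ± 0.16 (limma adjusted p = 0.000288) in the intestinal one, and the IEC-CiPSC lines lay below the NSC-CiPSC lines.

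Adcy5, a close relative of Adcy6 that is prominent in striatum and heart, had 0.170, 0.770 and 0.697 FPKM in NSC-CiPSC, against 1.35 FPKM in NSC. In IEC-CiPSC, Adcy5 had 0.0688 and 0.0684 FPKM, against 9.37 FPKM in IEC, with 0.0428 FPKM in ESC. It fell by 3.28 ± 0.28 (SE, limma adjusted p = 0.00132) in the intestinal route. Adcy7, a form of blood cells, had 0.337, 0.131 and 0.277 FPKM in NSC-CiPSC, against 0.0176 FPKM in NSC. In IEC-CiPSC, Adcy7 had 0.114 and 0.0812 FPKM, against 8.90 FPKM in IEC, with 0.542 FPKM in ESC. It fell by 3.17 ± 0.11 (SE, limma adjusted p = 0.000104) in the intestinal route, where 6 of 7 leukocyte markers were above 10 FPKM in IEC and at most 1 of 7 in either IEC-CiPSC line. Adcy3, the cyclase of olfactory neurons and primary cilia, had 2.19, 4.31 and 4.03 FPKM in NSC-CiPSC, against 2.06 FPKM in NSC. In IEC-CiPSC, Adcy3 had 4.67 and 3.57 FPKM, against 11.8 FPKM in IEC, with 3.57 FPKM in ESC. Its intestinal fall of 1.33 ± 0.39 (SE, limma adjusted p = 0.0433) stood close to the threshold and was lost under 8 alternative settings, among them without NSC-CiPSC line 2, without NSC-CiPSC line 3 and without either IEC-CiPSC line, and its transcripts overlap those of Cenpo over 924 bases.

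Adcy2 had 0.217, 0.240 and 0.379 FPKM in NSC-CiPSC, against 0.379 FPKM in NSC. In IEC-CiPSC, Adcy2 had 0.655 and 0.977 FPKM, against 2.69 FPKM in IEC, with 1.14 FPKM in ESC, and fell by 1.03 ± 0.14 (SE, limma adjusted p = 0.00519) in the intestinal route. Without IEC-CiPSC line 10 that call was lost. Adcy8, another calmodulin-regulated form of the brain, was listed at 0 in all 5 lines and in ESC, against 2.39 FPKM in NSC and 0.136 FPKM in IEC, and its neural change of -1.76 on the log2(FPKM + 1) scale (limma adjusted p = 1.08e-05) is set by NSC and the pseudocount alone. Adcy9, the form least sensitive to forskolin, had 0.823, 0.983 and 1.32 FPKM in NSC-CiPSC, against 3.67 FPKM in NSC. In IEC-CiPSC, Adcy9 had 1.54 and 1.57 FPKM, against 2.65 FPKM in IEC, with 0.885 FPKM in ESC. It fell by 1.1996 ± 0.16 (SE, limma adjusted p = 0.00521) in the neural and was not called in the intestinal route, at -0.51 ± 0.17 (limma adjusted p = 0.0595).

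Downstream and around the cyclases, 28 further genes of cAMP signalling were tested, and 1 rose and 15 fell in the neural route, beside 18.3% and 20.7% of all genes. In the intestinal route none rose and 11 fell, beside 19.1% and 26.2% of all genes. The median changes were -1.22 and -0.57, beside 0.03 and -0.03 over all genes. Pde4b, a phosphodiesterase that breaks cAMP down, had 0.0553 to 0.170 FPKM in NSC-CiPSC, against 21.3 FPKM in NSC. Rapgef4, the cAMP sensor EPAC2, had 0.332 to 0.571 FPKM in NSC-CiPSC, against 11.7 FPKM in NSC. Gnas, the stimulatory G protein subunit that activates the cyclases, had 59.3 and 54.0 FPKM in IEC-CiPSC, against 510.2 FPKM in IEC, and Prkar2b, a regulatory subunit of protein kinase A, had 1.10 and 1.31 FPKM there, against 18.5 FPKM in IEC. Both were also lower in NSC-CiPSC than in NSC, Gnas at 42.7 to 62.1 FPKM, against 383 FPKM, and Prkar2b at 1.43 to 3.81 FPKM, against 11.9 FPKM.

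Of the 2 GSK3 kinases, Gsk3a was the more abundant and the steadier, with 52.3, 50.9 and 51.0 FPKM in NSC-CiPSC, against 43.6 FPKM in NSC. In IEC-CiPSC, Gsk3a had 49.1 and 47.2 FPKM, against 40.3 FPKM in IEC, with 39.9 FPKM in ESC. Every line was above every source library and above ESC, yet by little, with changes of 0.23 (limma adjusted p = 0.0277) and 0.25 (limma adjusted p = 0.0247) that lay far under 2-fold; after rescaling to the sum without mitochondrial transcripts the neural value was -0.043. Gsk3b had 10.8, 15.5 and 13.7 FPKM in NSC-CiPSC, against 30.6 FPKM in NSC. In IEC-CiPSC, Gsk3b had 19.6 and 15.9 FPKM, against 15.2 FPKM in IEC, with 11.1 FPKM in ESC. Only NSC stood apart, and Gsk3b fell by 1.15 ± 0.24 (SE, limma adjusted p = 0.0183) in the neural route; without NSC-CiPSC line 3 that call was lost, at a limma adjusted p of 0.0548. Of 14 genes of the GSK3 and β-catenin pathway, 4 rose and 3 fell in the neural route, beside 18.3% and 20.7% of all genes, and 2 rose and 1 fell in the intestinal route, beside 19.1% and 26.2%. Tcf7, a DNA-binding partner of β-catenin, had 21.1 to 30.1 FPKM in NSC-CiPSC, against 2.69 FPKM in NSC. In IEC-CiPSC, Tcf7 had 26.4 and 24.5 FPKM, against 2.83 FPKM in IEC. Apc, the scaffold of the β-catenin destruction complex, had 12.5 to 16.4 FPKM in NSC-CiPSC, against 79.8 FPKM in NSC.

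Among the type I receptors blocked by ALK5-type inhibitors, Tgfbr1 had 5.01, 5.24 and 5.001 FPKM in NSC-CiPSC, against 7.67 FPKM in NSC. In IEC-CiPSC, Tgfbr1 had 6.12 and 6.40 FPKM, against 16.9 FPKM in IEC, with 7.19 FPKM in ESC. All lines were below ESC and below both source libraries, and Tgfbr1 fell by 1.30 ± 0.11 (SE, limma adjusted p = 0.00139) in the intestinal route, while its neural change of -0.51 ± 0.11 (limma adjusted p = 0.0193) was under 2-fold. Acvr1b, the receptor of activin and Nodal, had 7.88, 12.1 and 12.7 FPKM in NSC-CiPSC, against 6.14 FPKM in NSC. In IEC-CiPSC, Acvr1b had 12.2 and 12.0 FPKM, against 7.63 FPKM in IEC, with 10.1 FPKM in ESC. Each line lay above its own source library, but neither change was called. Acvr1b accordingly held 61.1% to 71.8% of the summed FPKM of the 3 receptors in NSC-CiPSC, against 44.2% in NSC, and 66.5% and 65.2% in IEC-CiPSC, against 30.9% in IEC.

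Of 20 other genes of this pathway, 8 rose and 6 fell in the neural route, beside 18.3% and 20.7% of all genes, and 6 rose and 9 fell in the intestinal route, beside 19.1% and 26.2%. The Nodal co-receptor Tdgf1 had 528 to 646 FPKM in NSC-CiPSC, against 0.708 FPKM in NSC. In IEC-CiPSC, Tdgf1 had 799 and 753 FPKM, against 0.0546 FPKM in IEC. The Nodal antagonist Lefty1 had 37.9 to 59.8 FPKM in NSC-CiPSC, against 0.144 FPKM in NSC, and Lefty2 had 97.8 and 102 FPKM in IEC-CiPSC, where IEC was listed at 0. In ESC the antagonists were lower than in these lines, at 2.70 FPKM for Lefty1 and 5.40 FPKM for Lefty2. Of the 4 other type I receptors, which carry BMP and related signals, none rose. In the neural route 3 fell (20.7% of all genes did) and in the intestinal route 4 fell (26.2% of all genes did). Bmpr1a had 16.4 to 17.7 FPKM in NSC-CiPSC, against 78.8 FPKM in NSC, and Acvr1 had 2.97 and 3.84 FPKM in IEC-CiPSC, against 19.4 FPKM in IEC.

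Maoa and Maob, neighbours on the X chromosome, break down monoamine transmitters at the outer mitochondrial membrane. Maoa had 7.71, 7.81 and 7.90 FPKM in NSC-CiPSC, against 25.9 FPKM in NSC. In IEC-CiPSC, Maoa had 20.2 and 19.4 FPKM, against 14.3 FPKM in IEC, with 12.2 FPKM in ESC. The 3 NSC-CiPSC lines were nearly identical and the lowest of all libraries, and the IEC-CiPSC lines lay above IEC and ESC. Maoa fell by 1.61 ± 0.08 (SE, limma adjusted p = 0.000429) in the neural route, while the intestinal change of 0.44 ± 0.08 (limma adjusted p = 0.0129) was under 2-fold. Maob had 0.263, 0.194 and 0.418 FPKM in NSC-CiPSC, against 0.856 FPKM in NSC. In IEC-CiPSC, Maob had 0.255 and 0.150 FPKM, against 3.40 FPKM in IEC, and was listed at 0 in ESC. It fell by 1.87 ± 0.12 (SE, limma adjusted p = 0.000617) in the intestinal route. Maob passed the filter only through IEC, so that this fall is tied to its passing.

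Set against ESC, no target gene was called in NSC-CiPSC, beside 2.81% of all genes (0.946% higher and 1.86% lower). None was called in IEC-CiPSC either, beside 3.36% of all genes (1.63% higher and 1.73% lower). In limma's test 11 of the 34 target genes in NSC-CiPSC and 9 in IEC-CiPSC had an unadjusted p under 0.05, where 3758 and 4096 of all 17011 genes did. With 1 ESC library, a missed call does not show that levels were alike. Maoa came closest by adjusted p, at -0.58 ± 0.08 in NSC-CiPSC (SE, limma adjusted p = 0.0447) and 0.66 ± 0.08 in IEC-CiPSC (limma adjusted p = 0.037), on opposite sides of ESC and both under 2-fold. Rarg had the widest gap, with 7.98 and 12.1 FPKM in IEC-CiPSC and 78.2 FPKM in ESC, a difference of -2.87 ± 0.44 (SE, limma adjusted p = 0.0527) that just missed the threshold and passed it without NSC-CiPSC line 1 (limma adjusted p = 0.0344), whereas in NSC-CiPSC it was -0.63 ± 0.42 (limma adjusted p = 0.47). Both sets of lines share the same ESC library in these values.

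Between the 2 kinds of line, set directly against each other, 2 of 34 target genes were called, beside 4.32% of all genes. Rarg was higher in NSC-CiPSC (1.56% of all genes were) and Maoa was lower (2.76% of all genes were). The Rarg difference was 2.24 ± 0.33 (SE, limma adjusted p = 0.0348), from 40.8 to 71.5 FPKM in NSC-CiPSC and 7.98 and 12.1 FPKM in IEC-CiPSC, and was lost without NSC-CiPSC line 2 or 3 or without either IEC-CiPSC line. The Maoa difference was -1.24 ± 0.06 (SE, limma adjusted p = 0.00579), from 7.71 to 7.90 FPKM in NSC-CiPSC and 19.4 and 20.2 FPKM in IEC-CiPSC, and was lost without either IEC-CiPSC line. Over the 666 X-linked genes the median of this difference was -0.64, with 6 genes higher and 137 lower in NSC-CiPSC, against a median of 0.04 over autosomal genes. The X-linked Hdac6, at -0.50 ± 0.11 (SE, limma adjusted p = 0.0774), and Hdac8, at -0.70 ± 0.16 (limma adjusted p = 0.0737), lay on the same side without being called. Maob, the remaining X-linked target gene, lay on the other side at 0.10 ± 0.09 (SE, limma adjusted p = 0.537), with under 1 FPKM in every line. Rara was higher in NSC-CiPSC by 0.97 ± 0.16 (SE, limma adjusted p = 0.0405) and Adcy6 by 0.88 ± 0.12 (limma adjusted p = 0.0316), both under 2-fold.

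The source cells themselves differed in these genes, as read from 1 library each and with no replicate check. By size alone, 5 of 34 target genes were at least 2-fold higher in NSC than in IEC (15.5% of all genes were), namely Hdac9, Adcy1, Adcy8, Dot1l and Ezh2. In the other direction 11 were at least 2-fold lower in NSC (20.5% of all genes were), namely Hdac7, Hdac10, Hdac11, Tgfbr1, Maob, Adcy2, Adcy3, Adcy5, Adcy7, Rarg and Ezh1. Among these genes, Maob and Adcy7 passed the filter only through IEC and Adcy8 only through NSC, so that their gaps are tied to their passing. The widest gaps were -3.28 for Adcy7, -2.32 for Rarg, -2.14 for Adcy5, -2.07 for Adcy3 and 2.03 for Ezh2 in log2(FPKM + 1), NSC minus IEC. Ezh2 thus stood at 63.5 FPKM in NSC and 14.8 FPKM in IEC, and Rarg at 2.34 FPKM in NSC and 15.7 FPKM in IEC.

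The difference between the changes of the 2 routes, neural minus intestinal, was called for 13 of 34 target genes, beside 30.5% of all genes, with 7 higher (17.6% of all genes were) and 6 lower (12.9% of all genes were). In this difference the lone NSC and IEC libraries enter in full. Maob and Adcy7 passed the filter only through IEC and Adcy8 only through NSC, so that their differences are tied to their passing. Adcy5 passed only through the source libraries. The counts are therefore set beside the shares of all genes without being read against them. For Rarg the neural change exceeded the intestinal one by 4.56 ± 0.61 (SE, limma adjusted p = 0.00797), for Adcy7 by 3.46 ± 0.16 (limma adjusted p = 0.000297) and for Adcy5 by 2.65 ± 0.39 (limma adjusted p = 0.0104). On the other side, the neural change lay below the intestinal one for Maoa, with a difference of -2.06 ± 0.12 (SE, limma adjusted p = 0.000598), and for Ezh2, with -1.85 ± 0.41 (limma adjusted p = 0.0306). For Kdm1a, which rose in both routes, the difference was -0.58 ± 0.11 (SE, limma adjusted p = 0.0197), under 2-fold.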

How the data were processed

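RNA of 8 libraries was sequenced after preparation with the NEBNext Ultra RNA kit, per the labels' protocols; the authors deposited 1 gene table per library with FPKM and their 95% intervals, for which the submitters' processing notes name TopHat, Cufflinks and the build mm10 (versions, and whether counting used strand, are not given in the sources used here). Libraries were grouped by title, source and line number. The tables were joined by gene identifier and position, and 447 entries marked as low-data or failed by Cufflinks in any library were left out. Changes were fitted with limma 3.58.1 in R 4.3.3 on log2(FPKM + 1), with 1 mean per group over all 8 libraries (3 residual degrees of freedom), empirical Bayes with trend and Benjamini-Hochberg adjustment over 17011 genes with at least 1 FPKM in at least 1 library; a call needs an adjusted p under 0.05 and a 2-fold change, and folds on this scale understate changes of low genes. The fit was tested on simulated data. All libraries there, lone ones included, were given the spread between NSC-CiPSC lines, so that variation between source libraries was not checked. Depth was estimated from the interval widths of long genes with 1 transcript. The intervals cover uncertainty within a library and not variation between libraries. Genes named outside the targets are, per pathway list and route, the up to 2 with the largest called change and at least 10 FPKM. A gene named for 1 route may have changed in the other as well. The result of a small pathway list is not reported here. Near copies were sought with blastn in GENCODE M21 transcripts (at least 90% identity over 400 bases); 8 target genes had a copy or overlap. Promoters are RefSeq's. Targets, pathway lists, marker lists and tests were chosen with earlier results of these data known, so that they support nothing beyond the values given.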

Additional observations from a re-analysis of the deposited data

Results flagged for a closer look

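For 13 of 34 target genes, beside 30.5% of all genes, the change in the neural route (NSC-CiPSC minus NSC) differed from that in the intestinal route (IEC-CiPSC minus IEC) by the test of the difference itself, in limma over all genes. Among these, the HDACs Hdac2 and Hdac10 differed by -1.17 and 1.37, the kinase Gsk3b by -1.36, and the oxidases Maoa and Maob by -2.06 and 1.35, neural minus intestinal in log2(FPKM + 1). Of the adenylyl cyclases, Adcy1 differed by -1.67, Adcy5 by 2.65, Adcy6 by 1.77, Adcy7 by 3.46 and Adcy8 by -1.58. Of the receptors and Polycomb enzymes, Rara differed by 1.52, Rarg by 4.56 and Ezh2 by -1.85. Limma adjusted p-values ran up to 0.0456, for Gsk3b. Without 1 of the NSC-CiPSC or IEC-CiPSC lines the call was lost for 7 of them. Over all settings tried, the limma adjusted p reached 0.0776 for Hdac2, 0.0892 for Hdac10, 0.13 for Gsk3b, 0.0783 for Adcy1, 0.0506 for Adcy5, 0.0625 for Rara and 0.106 for Ezh2. The Maob call was lost with a pseudocount of 0.1 and under quantile normalization, where the difference was 0.68. Maob and Adcy7 passed the filter only through IEC and Adcy8 only through NSC, so that their differences are tied to their passing. Adcy5 passed only through the source libraries.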

How the results depend on the processing

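Alternatives were a pseudocount of 0.1, no filter, a filter of 1 FPKM in at least 2 libraries, quantile, upper quartile and mitochondria-free scaling, a fit to the compared libraries, no trend, and leaving out each line. Of 50 called results on target genes, 31 kept their call and direction under all of them and 19 lost it under at least 1. Of 23 uncalled changes given in the text, 3 turned their sign: Adcy9 (0.084) and Hdac8 (0.038) in the intestinal route under quantile normalization, and Gsk3a (-0.043) in the neural route without mitochondrial transcripts; the cause was not tested. Quantile normalization moved the median of all genes by 0.18 in the intestinal route and by -0.16 in the difference between routes, and mitochondria-free scaling moved them by -0.10 and -0.10. Among all genes of the intestinal route 4080 rose and 3674 fell under quantile normalization, against 3252 and 4462 as reported, and in the neural route 2505 rose and 4269 fell without mitochondrial transcripts, against 3112 and 3527. Under quantile normalization the calls in IEC-CiPSC against IEC were lost for Adcy1, at 0.79 lower, for Rarb, at 0.96 lower, and for Adcy2 and Adcy3.

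A fit to the compared libraries alone called 49 genes higher and 153 lower in NSC-CiPSC against ESC, where 161 and 317 were reported, and 19 higher and 104 lower in IEC-CiPSC against ESC, where 277 and 295 were. In IEC-CiPSC against ESC 1 target gene fell under a pseudocount of 0.1 and 1 under the filter on 2 libraries. In NSC-CiPSC against IEC-CiPSC 4 target genes were higher under a pseudocount of 0.1 and 0 with no filter, where 1 was reported, and 423 of all genes were higher under that pseudocount, where 265 were. The filter on 2 libraries left 1951 of all genes higher in the difference between routes, where 2989 were. Quantile normalization left 7 target genes lower in NSC than in IEC, where 11 were.

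Leaving out 1 line gave ranges. In NSC-CiPSC against NSC 6 to 8 target genes rose and 9 to 10 fell, with 2767 to 3349 and 3208 to 3522 of all genes. In IEC-CiPSC against IEC 5 to 6 rose and 9 to 14 fell, with 2720 to 3406 and 3845 to 4605 of all genes. In NSC-CiPSC against ESC 0 target genes were called, with 47 to 322 of all genes higher and 139 to 405 lower. In IEC-CiPSC against ESC 0 rose and 0 to 1 fell, with 59 to 477 and 94 to 420 of all genes. In NSC-CiPSC against IEC-CiPSC 0 to 1 was higher and 0 to 1 lower, with 22 to 324 and 76 to 471 of all genes. In the difference between routes 5 to 9 were higher and 2 to 7 lower, with 2280 to 3295 and 1472 to 2423 of all genes. No paired analysis was possible because each source cell type and ESC is 1 library. Levels under about 0.2 FPKM rest on few fragments at this depth. Some higher levels also have wide intervals, such as Hdac7 at 0.722 FPKM in NSC-CiPSC line 1 (0 to 1.51). Another is Hdac11 at 3.46 FPKM in ESC (1.34 to 5.57).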
